A study of Mus musculus with 6 samples.

Results

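Uptake, export and storage of lipid were followed through 9 genes in cells cultured from the bone marrow of mice with aGVHD (acute graft-versus-host disease, an attack of donor immune cells on a transplant recipient). The genes are the scavenger receptors Msr1 and Cd36, the secreted lipase Lpl, the fatty acid carrier Fabp5, the cholesterol transporters Abca1 and Abcg1, the lipoprotein Apoe, the droplet coat protein Plin2 and the oxysterol receptor Nr1h3. They were chosen by name for these roles, with earlier results of these data known. All 9 were found among the 49328 genes of the deposited table and were high enough to be tested. The 3 tested cultures had received a compound labelled only R (0.5 um, unit as labelled) and the other 3 its vehicle, DMSO. All 6 were labelled as MSCs (mesenchymal stromal cells), obtained by digesting unfractionated marrow of CB6F1 hybrid mice with aGVHD and grown in high-glucose DMEM with serum. No culture came from a mouse without aGVHD. The sources used here do not give the identity of R, the length of treatment or whether replicates came from separate animals, so p-values measure only the spread between these libraries, which may be technical.

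Macrophages take up modified lipoproteins and fatty acids through scavenger receptors, hold the surplus as neutral lipid in droplets, and return cholesterol to the outside through ABC transporters to acceptors such as apolipoprotein E. Oxysterols made from surplus cholesterol activate the liver X receptors (LXR), which pair with RXR and switch on Abca1, Abcg1 and Apoe. Fatty acids act on the PPAR receptors, for which Cd36, Plin2 and Lpl are known targets. Stromal cells and adipocytes also express several of these genes, so in bulk RNA they do not mark macrophages alone.

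The authors' values are FPKM, fragment numbers scaled to gene length and library size, so genes can be compared per kilobase. The depth estimated from the steps between low values was 17070000 to 21750000 reads per library. The lowest estimated number of reads behind a value of the 9 genes was 511, for Nr1h3 in an R library, so counting error was small beside the spread between cultures. Across kept genes, which are no independent replicates, Pearson's r was 0.936 to 0.963 for pairs of an R and a vehicle library and 0.977 to 0.986 for pairs of one group. The cultures carried an MSC label and none for macrophages, so 20 macrophage markers were looked at, all of which were kept. The highest of them ranked 1 to 2 among kept genes in each library, so macrophage transcripts were abundant despite the MSC label. The lysozyme gene Lyz2 averaged 9453 ± 1167 FPKM in R and 11068 ± 1592 FPKM in vehicle, and the lysosomal glycoprotein gene Cd68 722.7 ± 62.2 FPKM in R and 666 ± 20.9 FPKM in vehicle (SD, n = 3 each). The cultures also held stromal transcripts, with the collagen gene Col1a1 at 479 ± 136 FPKM in R and 214 ± 75.7 FPKM in vehicle (SD, n = 3 each). Because the RNA is from mixed cultures, fewer cells of a type and less RNA per cell cannot be told apart.

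Both scavenger receptors were lower in R-treated cultures, while the genes of export, storage and LXR control did not pass the test. In limma over 11862 kept genes, 2 of the 9 fell, 0 rose and 7 did not pass an adjusted p of 0.05. Across all kept genes, 6.82% passed that threshold, 4.43% lower and 2.39% higher. The median log2 change of the 9 was -0.23, beside -0.0037 over all kept genes. In log2 units of FPKM + 1, the 9 changes ran from -1.43 for Msr1 to 0.39 for Apoe.

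**Figure D1:**
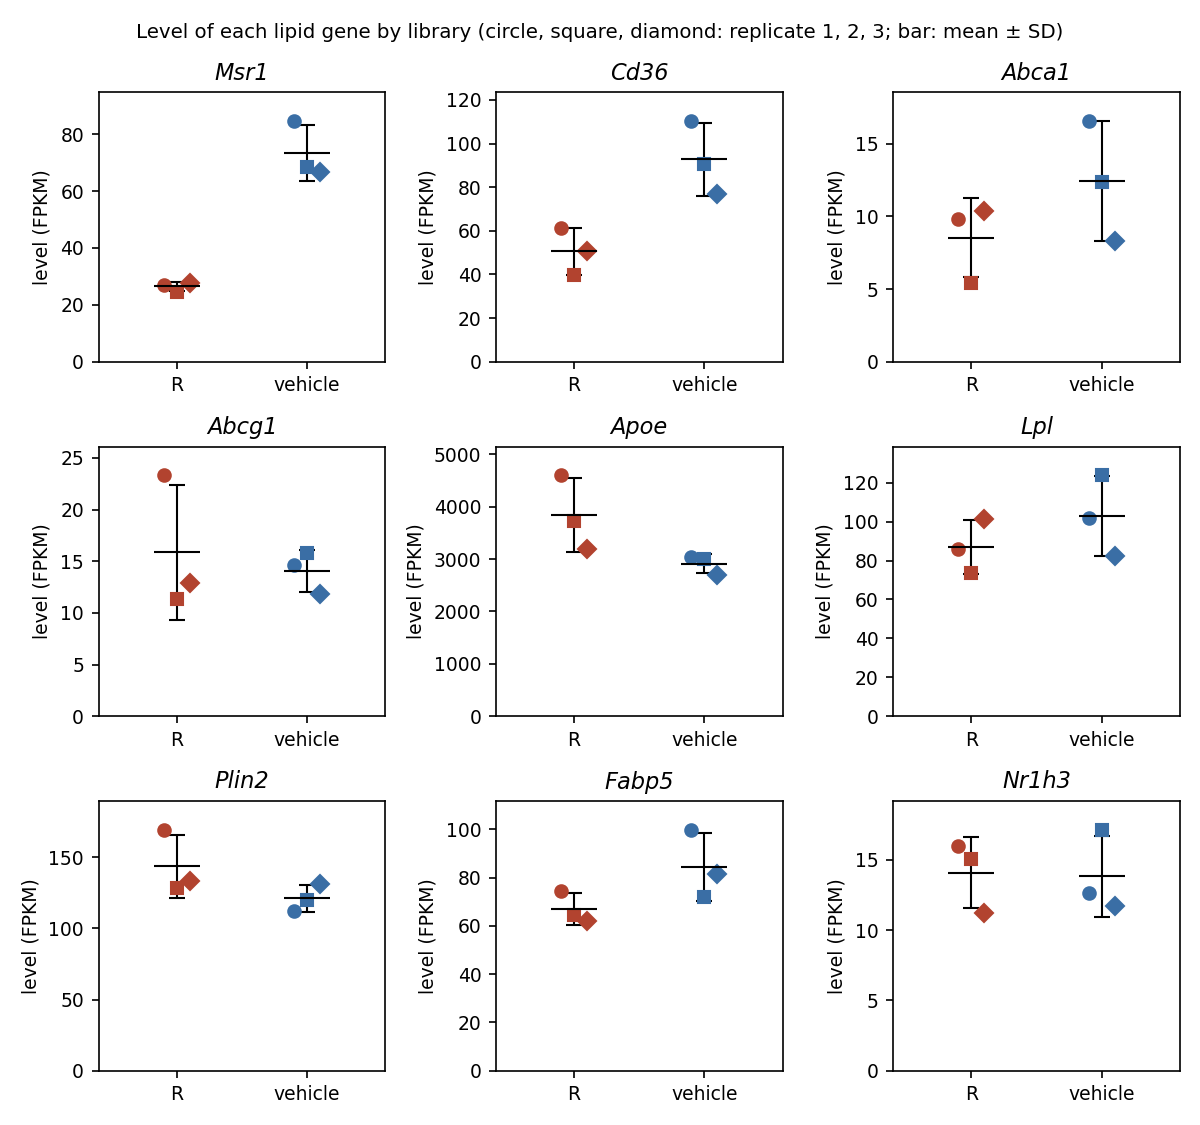
Level in FPKM of each gene in the 3 R libraries (left, red) and the 3 vehicle libraries (right, blue), with the mean and SD; each axis starts at 0. The R values of Msr1 (24.6 to 27.8 FPKM) and Cd36 (39.6 to 61.2 FPKM) all lie under their vehicle values, and those of Apoe all lie above.

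Windows before the transcription start were available from RefSeq (GRCm38.p6) for 5 of the 9 genes. The windows of Cd36, Abca1 and Plin2 are shown because they hold a match to the response elements of the nuclear receptors that control these genes. Each is the 250 bases before a start, 5′ to 3′ on the gene's strand (minus for all 3), with the match in capitals. The coordinates are chr5:17835897-17836146 for Cd36, a start inside the longer annotated span of the gene, chr4:53159896-53160145 for Abca1 and chr4:86670060-86670309 for Plin2.
Cd36: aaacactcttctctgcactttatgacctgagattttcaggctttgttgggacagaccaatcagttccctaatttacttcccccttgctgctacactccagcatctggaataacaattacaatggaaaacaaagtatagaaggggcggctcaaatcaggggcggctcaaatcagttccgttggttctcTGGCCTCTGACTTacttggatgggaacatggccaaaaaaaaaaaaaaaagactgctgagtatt
Abca1: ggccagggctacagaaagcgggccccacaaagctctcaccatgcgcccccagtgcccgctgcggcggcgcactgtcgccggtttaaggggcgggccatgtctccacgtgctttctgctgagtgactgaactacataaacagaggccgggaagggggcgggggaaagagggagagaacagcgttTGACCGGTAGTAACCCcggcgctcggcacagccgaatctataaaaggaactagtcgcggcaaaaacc
Plin2: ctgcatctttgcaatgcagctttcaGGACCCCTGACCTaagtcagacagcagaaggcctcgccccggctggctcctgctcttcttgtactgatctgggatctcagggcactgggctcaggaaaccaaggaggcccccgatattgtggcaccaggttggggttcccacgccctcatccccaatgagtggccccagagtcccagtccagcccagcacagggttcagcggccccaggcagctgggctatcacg
The capitals in Abca1 match, on the opposite strand, the DR4 repeat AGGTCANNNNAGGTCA bound by LXR with RXR, with 3 mismatches among its 12 set letters. Up to 3 were allowed, and 18.5% of 32851 windows of this length held such a match. The capitals in Cd36 and Plin2 match on the opposite strand the DR1 repeat AGGTCANAGGTCA bound by PPAR with RXR, with 2 mismatches each, as allowed. Of all windows, 3.24% held one. Of the 5 genes with windows, 1 matched DR4 and 2 matched DR1, and Apoe and Nr1h3 matched neither. On both strands, none of the windows of the 5 genes held the STAT palindrome TTCNNNGAA, the interferon response core GAAANNGAAA or the antioxidant core TGACNNNGC, which were found without mismatches in 7.02%, 2.98% and 10.2% of all windows. DR1 and DR4 repeat the same 6 letters, and such matches are descriptions of the letters, not of bound sites.

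Msr1 encodes the class A scavenger receptor, a trimeric receptor of modified low-density lipoprotein (chromosome 8, 39581685 to 39642673, GRCm38). It had 27, 24.6 and 27.8 FPKM in R replicates 1, 2 and 3, against 84.7, 68.4 and 66.8 FPKM in vehicle replicates 1, 2 and 3. The R cultures lay close together, and the lowest vehicle value was 2.4 times the highest R value. The means were 26.5 ± 1.65 FPKM in R and 73.3 ± 9.91 FPKM in vehicle (SD, n = 3 each), a ratio of 0.361. The log2 change was -1.43 (SE 0.11, 95% interval -1.69 to -1.16, limma adjusted p = 0.00084), and it passed under each of the 14 alternatives tried.

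Cd36, the class B scavenger receptor that also carries long-chain fatty acids into cells (chromosome 5, 17781690 to 17888801), fell by less. It had 61.2, 39.6 and 51 FPKM in R replicates 1 to 3, against 110, 90.8 and 77 FPKM in vehicle replicates 1 to 3. The groups did not overlap, but the highest R value came within 1.26 times of the lowest vehicle value. Groups that do not overlap were seen in 15.5% of kept genes with R lower and in 13.9% with R higher. The means were 50.6 ± 10.8 FPKM in R and 92.7 ± 16.8 FPKM in vehicle (SD, n = 3 each), a ratio of 0.545. The log2 change was -0.87 (SE 0.19, 95% interval -1.31 to -0.43, limma adjusted p = 0.04). This call was lost when R replicate 2 or 3 or vehicle replicate 1 or 2 was left out (adjusted p = 0.088 to 0.13) and when no filter on low values was set (adjusted p = 0.12).

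Lpl, the lipase that releases fatty acids from lipoprotein triglyceride, and Fabp5, which carries fatty acids inside the cell, did not pass. Lpl (chromosome 8, 68880491 to 68907448) had 86.1, 73.6 and 102 FPKM in R, against 102, 124 and 82.6 FPKM in vehicle, and the groups overlapped widely. Its log2 change was -0.23 with a 95% interval of -0.64 to 0.18. Fabp5 (chromosome 3, 10012548 to 10016607) had 74.5, 64.4 and 62.1 FPKM in R, against 99.8, 71.8 and 81.5 FPKM in vehicle. Only R replicate 1 reached above a vehicle library, replicate 2. The log2 change of Fabp5 was -0.32 (95% interval -0.64 to 0.005; limma adjusted p = 0.22).

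The value of Fabp5 is uncertain because processed copies of it could share its reads. Gm6166, a processed pseudogene on chromosome 9 (57483963 to 57484371), matched Fabp5 transcripts at 98.3% identity over 409 bases. It had 53.3, 29 and 23.8 FPKM in R, against 14.5, 15.9 and 18.6 FPKM in vehicle, the opposite order to Fabp5, and did not pass (log2 change 0.99, limma adjusted p = 0.079). Another copy, Gm14328 (97.3% identity over 408 bases), ranged over 1.22 to 1.91 FPKM in R, against 1.1 to 2.15 FPKM in vehicle. When the reads of the copies were added to Fabp5, they made up 4.42% to 7.79% of the sum in R and 1.87% to 2.74% in vehicle. The log2 change of the sum was -0.27 (limma adjusted p = 0.3), and its values were 80.8, 67.9 and 64.9 FPKM in R, against 102, 73.8 and 83.8 FPKM in vehicle. How the authors' counting split reads among these genes is not given in the sources used here.

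Of the export genes, Apoe was the most abundant of the 9 and the only one higher in every R library than in every vehicle library. Such a separation with R higher was seen in 13.9% of all kept genes. Apoe (chromosome 7, 19696109 to 19699188) encodes the apolipoprotein that accepts cholesterol from macrophages and directs lipoprotein uptake. It ranked 5 to 8 among kept genes in each library, with 4596, 3733 and 3188 FPKM in R replicates 1 to 3, against 3030, 2996 and 2702 FPKM in vehicle replicates 1 to 3. The R cultures were spread more widely, at 3839 ± 709.7 FPKM against 2909.5 ± 181 FPKM in vehicle (SD, n = 3 each). The log2 change was 0.39 (95% interval -0.02 to 0.79, limma adjusted p = 0.23). With quantile normalization, which sets the highest genes of all libraries to like values, it was 0.11 (adjusted p = 0.68).

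Abca1 and Abcg1, the transporters that move cholesterol out of the cell to lipid-poor and to formed lipoprotein particles, showed no shift beyond their spread. Abca1 (chromosome 4, 53030787 to 53159895) had 9.79, 5.41 and 10.4 FPKM in R, against 16.6, 12.4 and 8.3 FPKM in vehicle. Vehicle replicate 3 lay within the R values, and the log2 change was -0.49 with an interval of -1.17 to 0.19. Abcg1 (chromosome 17, 31057675 to 31117988) had 23.3, 11.4 and 12.9 FPKM in R, against 14.6, 15.8 and 11.8 FPKM in vehicle. R replicate 1 stood above all other libraries, and the log2 change was 0.1 (95% interval -0.49 to 0.69) with all 6 libraries. It was -0.2 without R replicate 1 and -0.01 without vehicle replicate 3.

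Plin2, which coats lipid droplets and is used as a gauge of stored lipid (chromosome 4, 86648386 to 86670060), had 169, 128 and 133 FPKM in R, against 112, 120 and 131 FPKM in vehicle. R replicate 2 was below vehicle replicate 3, so the groups overlapped, and the log2 change was 0.24 (95% interval -0.07 to 0.54, limma adjusted p = 0.32). Nr1h3, which encodes LXR alpha (chromosome 2, 91184061 to 91202834), had 16, 15 and 11.2 FPKM in R, against 12.6, 17.1 and 11.7 FPKM in vehicle. Its means differed by less than the spread between cultures, at 14.1 ± 2.51 FPKM in R and 13.8 ± 2.89 FPKM in vehicle (SD, n = 3 each; log2 change 0.03, 95% interval -0.38 to 0.44).

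**Figure D2:**
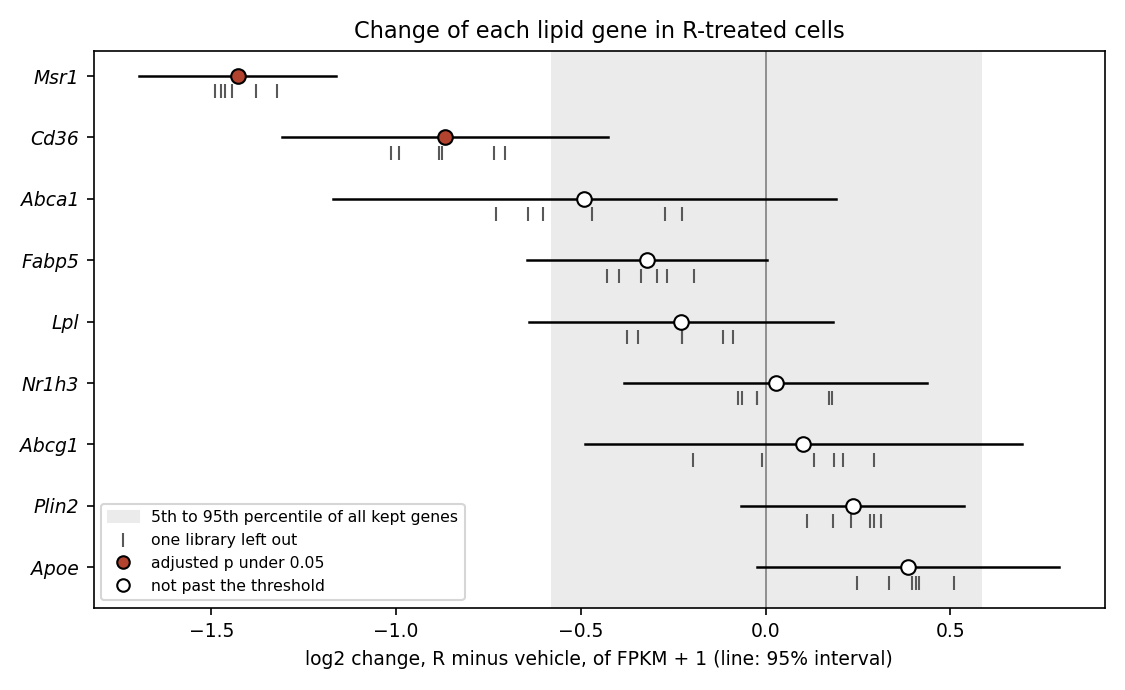
Log2 change (R minus vehicle, FPKM + 1) of the 9 genes with its 95% interval; ticks under each point are the values with each library left out, and the grey band holds the middle 90% of all kept genes (-0.58 to 0.58). Msr1 and Cd36 lie left of the band, at -1.43 and -0.87, and the other 7 lie within it.

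The order of levels per kilobase was nearly the same in both groups below Apoe, but the spacing was not. In R the means ran Plin2 (144 FPKM), Lpl (87.1), Fabp5 (67), Cd36 (50.6), Msr1 (26.5), Abcg1 (15.8), Nr1h3 (14.1) and Abca1 (8.53). Among neighbours in that order, Lpl with Fabp5 and Abcg1 with Nr1h3 had overlapping ranges. In vehicle the means ran Plin2 (121 FPKM), Lpl (103), Cd36 (92.7), Fabp5 (84.4), Msr1 (73.3), Abcg1 (14.1), Nr1h3 (13.8) and Abca1 (12.4). There, each neighbour pair from Plin2 down to Msr1 and from Abcg1 down to Abca1 overlapped. In R, unlike in vehicle, neither scavenger receptor overlapped with Fabp5.

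Of the 20 macrophage markers, 3 fell like the scavenger receptors and 17 did not pass in limma. An unadjusted limma p under 0.05 was seen in 13 of the 20, beside 24% of all kept genes. In 12 of the 20 every R library lay below every vehicle library, beside 15.5% of all kept genes. A log2 change below 0 was seen in 18 (median -0.42), as in 50.7% of all kept genes, and the exceptions were Cd68 at 0.11 and Cx3cr1 at 0.88. The Fc receptor Fcgr1 fell to 7.38 ± 0.729 FPKM in R, against 47.3 ± 17.5 FPKM in vehicle, the integrin Itgam to 11.4 ± 0.443 FPKM, against 23.1 ± 3.74 FPKM, and Aif1 to 12.5 ± 3.29 FPKM, against 39.8 ± 14.5 FPKM (SD, n = 3 each). The call of Aif1 was lost with any R library left out, with vehicle replicate 1 or 2 left out and with no filter (limma adjusted p = 0.053 to 0.093). C1qa had a log2 change of -0.9, Adgre1 (F4/80) -0.53 and the CSF1 receptor gene Csf1r -0.3, and these did not pass (limma adjusted p = 0.075, 0.088 and 0.25); C1qa and Adgre1 passed without vehicle replicate 3 (0.039 and 0.025), and C1qa also with quantile normalization (0.015). The summed FPKM of the 20 markers was 14390 to 18186 in R and 17621 to 23445 in vehicle.

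Set against that sum, Msr1 and Cd36 were still lower and Apoe and Plin2 higher in all 3 R cultures, without overlap. The sum itself was mostly lower in R, so a gene whose FPKM did not change also has a higher ratio there. Plin2 overlapped between the groups in FPKM, with a log2 change of 0.24, and separated only as a ratio. How many of all kept genes separate in such a ratio was not counted. Per 1000 FPKM of markers, Msr1 had 1.49, 1.58 and 1.93 FPKM in R, against 3.61, 3.48 and 3.79 FPKM in vehicle, a log2 difference of -1.13. Cd36 had 3.36, 2.53 and 3.54 FPKM in R, against 4.71, 4.62 and 4.37 FPKM in vehicle, a log2 difference of -0.55. For Apoe the values were 253, 239 and 222 FPKM in R, against 129, 152 and 153 FPKM in vehicle, a log2 difference of 0.72. Plin2 had 9.31, 8.21 and 9.26 FPKM in R, against 4.79, 6.1 and 7.43 FPKM in vehicle, a log2 difference of 0.57. In a 2-sided exact permutation test each of these 4 ratios gave p = 0.1, the smallest that 3 against 3 libraries allow. Fabp5 was level with the marker sum, with a log2 difference of 0.01. The other 4 ratios overlapped between the groups, with log2 differences of -0.21 for Abca1, 0.1 for Lpl, 0.36 for Nr1h3 and 0.44 for Abcg1 (exact p of 0.2 to 0.7). Lyz2 made up a large part of the sum, and without it Msr1 had a log2 difference of -0.99, Cd36 -0.41, Apoe 0.85 and Plin2 0.71, with no overlap between the groups for these 4 or for Nr1h3 (0.5). The part of macrophage content in the changes of the 9 genes was not tested beyond these ratios.

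**Figure D3:**
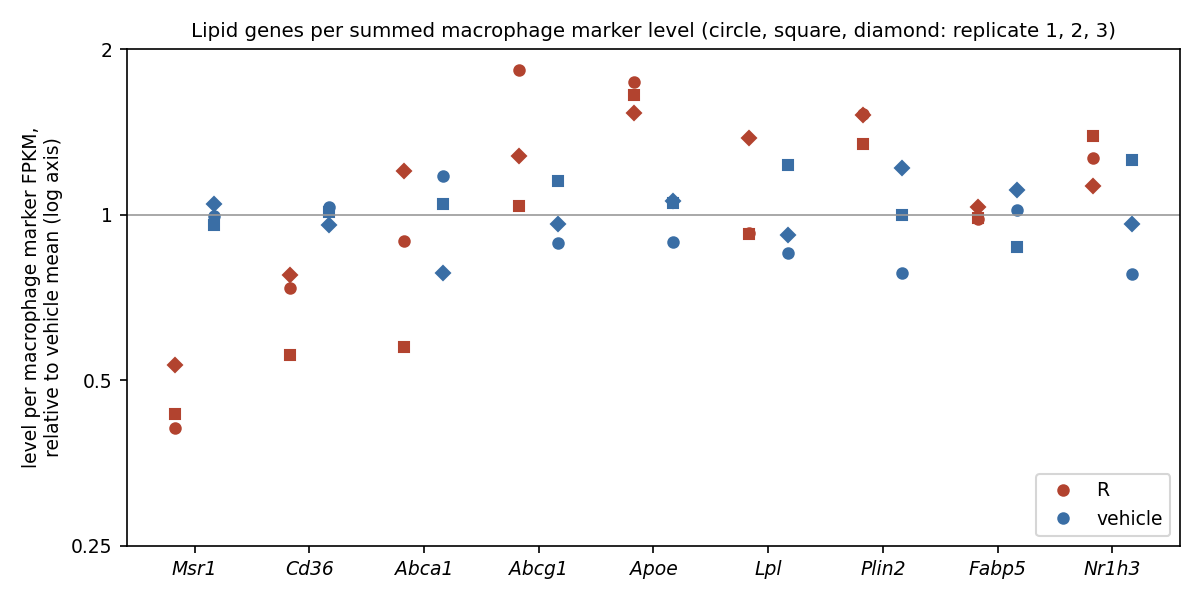
Level of each gene per summed FPKM of the 20 macrophage markers, divided by its mean in vehicle (log axis), in the 3 R libraries (left, red) and the 3 vehicle libraries (right, blue). Msr1 and Cd36 lie below 1 in every R library, and Apoe and Plin2 lie above each vehicle value.

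Markers of other cell types that use these genes were also looked at. The summed level of the 15 stromal markers was 938 to 1361 FPKM in R, against 571 to 960 FPKM in vehicle. Of the 10 kept stromal markers 0 passed in limma (4 at an unadjusted p under 0.05, as were 24% of all kept genes, median log2 change 0.08), with log2 changes of 1.19 for Col1a1, 0.65 for Pdgfrb, 0.53 for Prrx1 and 0.39 for Itgb1, which have the smallest p-values. Of the 10, 5 had a change above 0 and 5 below, the lowest being Cxcl12 at -1.31. The 11 adipocyte markers summed to 182 to 212 FPKM in R, against 118 to 186 FPKM in vehicle, of which Cebpa, which myeloid cells also express, averaged 147 ± 8.08 FPKM in R and 105 ± 23.4 FPKM in vehicle. Of the 4 kept adipocyte markers 0 passed in limma (3 at an unadjusted p under 0.05). Lep was listed at 0 in all libraries, and the adipocyte hormone Adipoq reached 6.89 FPKM at most in R and 19.4 FPKM in vehicle replicate 2. Endothelial markers summed to 3.68 to 8.01 FPKM in R, against 2.07 to 2.85 FPKM in vehicle, the highest being Cdh5. Neutrophil markers summed to 6.61 to 9.66 FPKM in R, against 8.63 to 14.6 FPKM in vehicle, most of it Csf3r, with Elane, Mpo and S100a9 listed at 0. T and NK cell markers summed to 2.37 to 6.97 FPKM in R, against 6.25 to 9.72 FPKM in vehicle, with Klrb1c and Ncr1 at 0. Of their 3 kept genes 1, Nkg7, fell (log2 change -1.47). It had 0, 0.243 and 0.182 FPKM in R, against 3.01, 2.16 and 1.48 FPKM in vehicle. These are an estimated 0 to 4 reads in R and 27 to 47 in vehicle. Nkg7 reached the filter's FPKM of 1 in the vehicle libraries only, so it was kept through the group where it is high. Trbc2 had a log2 change of -1.02 and Cd4, higher in every R library, one of 0.64. Neither passed. B cell markers summed to 0.429 to 0.803 FPKM in R, against 0.622 to 1.61 FPKM in vehicle. Erythroid and megakaryocyte markers summed to 54.3 to 109 FPKM in R, against 72.6 to 164 FPKM in vehicle, nearly all of it Pf4. The part of stromal and adipocyte RNA in the values of Lpl, Plin2 and Apoe was not tested.

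Around the 9 genes, few other genes of lipid handling passed. Of 130 genes in 9 lists by role, 104 were kept, and of these 1 rose and 1 fell in limma. Of all kept genes, 2.39% rose and 4.43% fell. Of the further scavenger and lipoprotein receptors, 1 of 12 kept genes rose, 0 fell and the median log2 change was 0.03. Cd5l, a macrophage-secreted scavenger protein known as an LXR target, rose to 7.32, 7.43 and 5.76 FPKM in R, against 2.99, 3.93 and 3.73 FPKM in vehicle (log2 change 0.78, limma adjusted p = 0.017). This call was lost with no filter and when R replicate 1 or 2 or vehicle replicate 1 was left out (adjusted p = 0.06 to 0.064). Marco, the other class A receptor of macrophages, had 1, 2.31 and 1.87 FPKM in R, against 10.1, 6.35 and 3.09 FPKM in vehicle (log2 change -1.38, adjusted p = 0.07), and it passed without vehicle replicate 3 (adjusted p = 0.016). Scara3 and Colec12, class A relatives, had log2 changes of 0.62 and 0.23 and did not pass.

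Among genes of fatty acid binding, transport and activation, 0 of 15 kept genes rose, 1 fell and the median was 0.04. Acsl1, which activates long-chain fatty acids to acyl-CoA, fell to 6.32, 4.73 and 6.1 FPKM in R, against 13.2, 11.8 and 10.5 FPKM in vehicle (log2 change -0.94, limma adjusted p = 0.0083), and it passed under all 14 alternatives. Its relative Acsl4, which prefers arachidonic acid, stood just outside the threshold at a log2 change of -0.51 (adjusted p = 0.0501). It passed with a pseudocount of 5 (limma adjusted p = 0.0496) and with a stricter filter (0.0398). The lipase inhibitor Angptl4 (log2 change 0.87, adjusted p = 0.057) and the fatty acid carrier Fabp4 (log2 change 0.42, adjusted p = 0.11) did not pass. Both were higher in every R library, as were 13.9% of all kept genes. Angptl4 had 11.3, 11.7 and 12 FPKM in R, against 3.85, 6.48 and 8.08 FPKM in vehicle, and passed without vehicle replicate 3 (adjusted p = 0.024), with a pseudocount of 5 (0.046) and with a stricter filter (0.045). Fabp4 passed without R replicate 3 (0.033).

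The lists of export held no gene past the threshold. Of 5 kept ABCA and ABCG relatives 0 passed in limma, with 0 at an unadjusted p under 0.05 and a median of -0.25. The largest of these values was that of Abcg3, at -0.51, and Abca3, Abca7 and Abca2 had -0.26, -0.25 and 0.16. Of 4 kept genes of apolipoproteins and lipid transfer 0 passed, with 0 at an unadjusted p under 0.05 and a median of -0.19. The phospholipid transfer protein gene Pltp, an LXR target, had a log2 change of -0.54, Osbpl1a -0.21, Apobec1 -0.16 and the apolipoprotein B receptor gene Apobr -0.07.

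The lists of control were alike in this. Of 15 kept LXR partners and targets 0 passed in limma, with 1 at an unadjusted p under 0.05 (Scd1) and a median of 0.11. Scd1, a fatty acid desaturase, had 15.8, 15 and 18 FPKM in R, against 5.05, 8.48 and 15.1 FPKM in vehicle, and passed only without vehicle replicate 3 (adjusted p = 0.022 against 0.17 with all libraries). Arl4c, Fasn and Lpcat3 had log2 changes of 0.35, 0.27 and 0.16. Of 8 kept PPAR factors and targets 0 passed, with 2 at an unadjusted p under 0.05 and a median of 0.13. Pparg, the adipogenic and macrophage PPAR, had 23, 32.1 and 25.2 FPKM in R, against 11.3, 19.4 and 12.6 FPKM in vehicle. Its groups did not overlap, with R higher, as in 13.9% of all kept genes (log2 change 0.87, limma adjusted p = 0.053). Among the fits without a replicate block it passed with equal medians (adjusted p = 0.046), with a stricter filter (0.042) and without vehicle replicate 2 (0.023). Klf4, Pdk4 and Hadha had log2 changes of 0.51, 0.51 and 0.19.

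Handling and storage differed in the sign of most of their changes, without a gene past the threshold. Among all kept genes, 50.7% had a change below 0 and 24% an unadjusted limma p under 0.05. Of 11 kept genes of lysosomal and cellular cholesterol handling 0 passed in limma (2 at an unadjusted p under 0.05), 10 had a change below 0, and the median was -0.15. Stard4, a sterol carrier, had a log2 change of -0.36, the cholesterol 25-hydroxylase gene Ch25h -0.56, Gramd1b -0.35 and Npc2 -0.21. Ch25h passed without R replicate 1 (adjusted p = 0.024). Of 13 kept lipid droplet and lipolysis genes 0 passed (6 at an unadjusted p under 0.05), 10 had a change above 0 and the median was 0.28. Dgat1, which makes triglyceride, had 11, 12.2 and 10.6 FPKM in R, against 7.71, 8.12 and 9.62 FPKM in vehicle (log2 change 0.38, adjusted p = 0.082). Fitm2, Hilpda and Mgll, which act in droplet formation, lipase inhibition and monoacylglycerol breakdown, had log2 changes of 0.48, 0.73 and 0.66. Of 21 kept genes of cholesterol synthesis 0 passed (3 at an unadjusted p under 0.05), with a median of 0.06 and a range of -0.27 to 0.33. Sc5d, Fdft1, Insig2 and Ebp had log2 changes of 0.33, 0.27, 0.2 and -0.27.

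**Figure D4:**
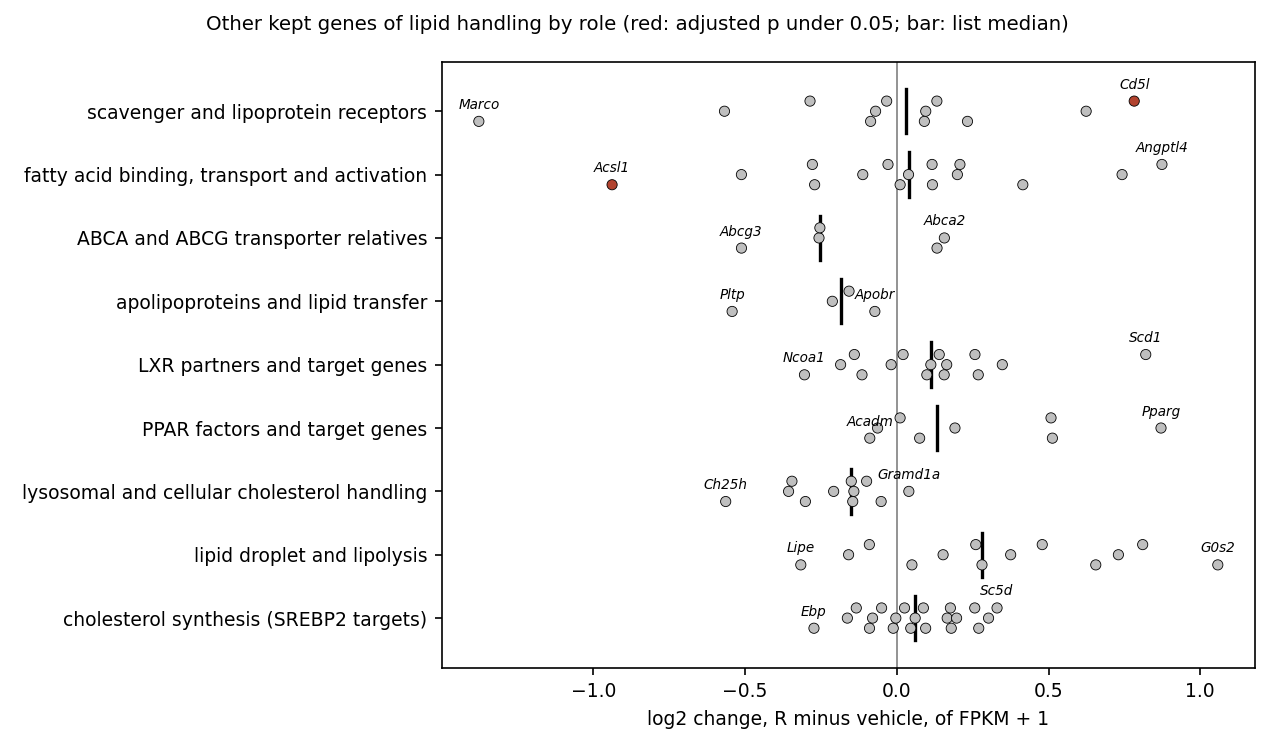
Log2 change (R minus vehicle, FPKM + 1) of each kept gene of the 9 lists by role; red points passed an adjusted p of 0.05 and bars are list medians. Cd5l (0.78) and Acsl1 (-0.94) are the red points, and the medians run from -0.25 to 0.28.

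The profiles most like those of the genes that fell were found by the Euclidean distance between log2(FPKM + 1) values, centred for each gene, over the 6 libraries, without predicted gene models. For Msr1 the nearest were Trim30d (distance 0.14, log2 change -1.37), Hk3 (0.17, -1.33) and Pstpip2 (0.21, -1.39). Trim30d belongs to the TRIM family, Hk3 is a hexokinase of blood cells, and Pstpip2 is an actin-associated protein of macrophages. Hk3 had 52, 53.5 and 57.7 FPKM in R, against 161, 131 and 125 FPKM in vehicle. Trim30d was low, at 1.44, 1.11 and 1.46 FPKM in R, against 6.16, 4.83 and 4.22 FPKM in vehicle. Its log2 change ran from -1.84 to -0.66 over the alternative fits with all libraries. Its distance to Msr1 with another pseudocount was not computed. For Cd36 the nearest were Ms4a6d (0.18, -0.84), Mpeg1 (0.2, -0.75) and Adar (0.24, -0.86). These genes passed in limma, but the call was lost in 5, 7 and 2 of 14 alternatives, in that order. Mpeg1, the pore-forming perforin-2 of macrophages, had 311, 228 and 283 FPKM in R, against 536, 468 and 381 FPKM in vehicle.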

How the data were processed

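Gene expression was measured by RNA sequencing of total RNA in 6 cultures. The authors deposited one table of FPKM per gene and library. Per the submitters' processing notes their tools included edgeR 3.18.1 and their genome was GRCm38, also named mm10. The sources used here name no aligner, counter, annotation or strand setting. The table's last line broke off and was left out. Symbols, exon lengths and coordinates came from GENCODE M21 (GRCm38); 26 identifiers had no symbol. FPKM depend on the authors' gene lengths and on their library scaling. Multiplied by exon length, 98.1% to 98.3% of values under 20.5 reads were whole multiples of 1 read within 0.02 reads, which gave the estimated depths.

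Values were tested as log2(FPKM + 1) with limma 3.58.1 (R 4.3.3; 2 groups, moderated variance with a trend) on genes that reached an FPKM of 1 in 3 or more libraries, with Benjamini-Hochberg adjustment over all kept genes. Changes are R minus vehicle and understate those of low genes. Groups and replicate numbers came from the sample titles. On simulated data, with the same spread set for every gene, the limma test found nearly all of the larger changes and missed most of the smallest. It made false calls above the nominal rate in each draw, which bears most on calls close to the threshold such as Cd36. The same recovery cannot be assumed for genes that varied more than that between these cultures, such as Marco and Abca1. Ratios used an exact permutation test (scipy 1.17.1), and copies were sought with BLAST 2.17.0 (at least 90% identity over at least 300 bases). The 9 genes, the lists and the tests were chosen with earlier results of these data known. Besides the 9, the text names up to 4 kept genes with the smallest p of each role list and of the macrophage and stromal lists, Cd68, Lyz2, Adgre1 and Csf1r, the highest kept gene of each other marker list, and 3 nearest profiles per gene called; Nkg7, Cd4, Cx3cr1, Cxcl12, Adipoq, Gm6166, Gm14328, Cidec, Apoc1 and genes at 0 were named after their values were seen. The alternatives were other pseudocounts, filters, scalings and moderation, a replicate block, and each library left out; 2 more were added after seeing the data, the copies of Fabp5 and the marker sum without Lyz2.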

Additional observations from a re-analysis of the deposited data

How the results depend on the processing

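Msr1 kept its direction and its call in all 14 alternatives (log2 change -1.49 to -1.31). The 9 genes gave 127 alternative values, of which 116 kept direction and side of the threshold. The number of the 9 past the threshold was 1 with no filter on low values and 1 to 2 with a library left out, because Cd36 was lost there: its log2 change was -0.87 (adjusted p = 0.12) with no filter, and -1.01 to -0.71 over the 6 fits with a library left out. Without a library the changes of Abcg1 and Nr1h3, which did not pass in any fit, ran from -0.195 to 0.293 and from -0.0745 to 0.181, and Apobr ran from -0.217 to 0.0398. Of 809 genes called among all kept genes (6.82%), 525 were lower; the count was 344 with no filter (65 higher, 279 lower) and 337 to 879 with a library left out. Without a library the ratio to the marker sum changed sign for Abca1 (-0.46 to 0.071), Lpl (-0.0952 to 0.258) and Fabp5 (-0.0877 to 0.0832). The cause of these shifts was not tested. Of 820 values of 59 other named genes, 769 kept side and direction, 24 lost and 25 gained a call and 2 changed sign; Pdgfrb and Trbc2 passed without R replicate 1 and Cebpa without vehicle replicate 2. The replicate numbers did not pair the libraries (correlations of deviations from group means for equal numbers of 0.142, -0.0117 and -0.0309); with a replicate block 756 genes were called, Msr1 (-1.43, adjusted p = 0.0028) and Cd36 (-0.87, adjusted p = 0.026) among them, and Pparg (adjusted p = 0.012), C1qa (0.0193), Pdgfrb (0.024), Scara3 (0.027), Acsl4 (0.045), Angptl4 (0.047) and Pdk4 (0.049) gained a call. With 3 cultures a group, the 95% intervals of the 7 genes not past the threshold were 0.6 to 1.36 log2 units wide.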

Other observations

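Some listed genes lay under the filter on low values and entered no count above; 7 of these 25 did not overlap between the groups, 5 with R higher, a share near the 29.3% of kept genes without overlap. Cidec, which fuses lipid droplets and is also among the adipocyte markers, had 0.694, 0.719 and 0.477 FPKM in R, against 0.0316, 0.0575 and 0.0539 FPKM in vehicle, or an estimated 16 to 28 reads in R and 1 to 2 in vehicle. Without a filter on low values its limma adjusted p was 0.0225. Apoc1, which lies beside Apoe, had an estimated 5 to 9 reads in R and 0 to 2 in vehicle (adjusted p = 0.095 without a filter). Both were singled out after their values were seen.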
